A study of Drosophila melanogaster with 36 samples.

Results

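The endoplasmic reticulum (ER) stress response was followed through 8 Drosophila melanogaster genes, out of 17142 gene rows in the count table: the stress sensors PEK and Atf6, the transcription factors Xbp1 and crc, the chaperones Hsc70-3 and Gp93, and the oxidative folding enzymes Pdi and Ero1L. The rows were chosen by FlyBase symbol or synonym, and all 8 genes passed the filter on low counts. They lie on chromosome arms X (Hsc70-3), 2L (crc), 2R (Xbp1 and Atf6), 3L (Pdi and Ero1L) and 3R (PEK and Gp93).

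RNA was sequenced from S3 cells, an embryonic Drosophila cell line that stores little lipid until free fatty acid is added to the medium. All samples were taken after 4 h, with or without 200 µM oleic acid (OA). The 10 groups were cells without OA (6 libraries), cells with OA (6 libraries), the same conditions with the vehicle DMSO at 0.1% (3 libraries each), and cells with OA, 0.1% DMSO and 1 µM of a small molecule (3 libraries for each of 6 compounds). The compounds were an active and an inactive derivative of each of 3 chemotypes (CT) of lipid storage inhibitors: tetrahydroindazole (CT1, active THI-4 and inactive THI-68), thienopyrrole (CT2, active TPE-69 and inactive TPE-67) and arylureido (CT3, active AU-6 and inactive AU-73). Active and inactive derivatives of a chemotype were thus compared at the same dose and time, and no compound was given without OA.

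When unfolded proteins gather in the ER lumen, metazoan cells start the unfolded protein response. The sensor Ire1 splices the mRNA of Xbp1, which then encodes a transcription factor for chaperone and secretory pathway genes. PEK, the fly PERK, phosphorylates a translation initiation factor, so that most protein synthesis slows while crc, the fly ATF4, is translated more. Atf6 is a membrane-bound transcription factor released by proteolysis. Hsc70-3 is the fly BiP, the main Hsp70 chaperone of the ER, and Gp93 is the fly GRP94. Pdi forms and rearranges disulphide bonds, and Ero1L reoxidises it. Gene-level read counts measure the amount of each mRNA only, and hold no information on Xbp1 splicing, crc translation, Atf6 cleavage or PEK phosphorylation.

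The 36 libraries held between 1208200 and 9548314 counted reads (median 5005547), and a single 18S ribosomal RNA row took 34.7 to 51.4% of them. The authors left out replicates of low rank correlation. Of the libraries with DMSO, 2 (vehicle without OA, replicate 1, and vehicle with OA, replicate 3) are not in their per-replicate table. Those 2 were also the shallowest libraries, and were left out here. The groups without DMSO are not in that table at all, so it does not show which of their replicates the authors kept. All of their libraries were kept here, and 34 libraries were used. Levels are given as CPM (library-size-scaled read counts) after TMM scaling, which are shares of a library and do not show a change in total RNA per cell, and differences as log2 fold changes with the standard error (SE) from edgeR's quasi-likelihood test with Benjamini-Hochberg adjustment over all genes tested. A change was called at an adjusted p under 0.05. The labels do not say that replicates came from separate cultures, so that the p-values measure the spread between these libraries.

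All 8 mRNAs were present in every library. On the per-length FPKM scale of the authors, Pdi was the most abundant, with a median of 700.1 FPKM over 34 libraries, followed by crc with 391, Hsc70-3 with 265, Xbp1 with 217 and Gp93 with 138. The sensors and Ero1L were much lower, with medians of 30.9 FPKM for Atf6, 25.0 FPKM for PEK and 18 FPKM for Ero1L. The lowest raw count of any of the 8 genes in a used library was 59, for Ero1L. Between the lowest and the highest of the 10 group means in CPM, Hsc70-3 moved most, by 1.65-fold, then Xbp1 by 1.53-fold, Ero1L by 1.46-fold and Gp93 by 1.33-fold. Pdi moved least, by 1.15-fold.

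The first question was how OA alone changed these genes. Without DMSO, Hsc70-3, Xbp1, Gp93 and crc were lower with OA, and none of the 8 genes was called higher. This was 4 of 8 genes called, beside 13.6% of all 7546 genes called in either direction and 6.93% called lower. The median log2 fold change was -0.17 over the 8 genes and -0.01 over all genes tested.

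Hsc70-3 ranged from 952 to 1202 CPM without OA (median 1028, n = 6) and from 713 to 827 CPM with OA (median 739, n = 6). The groups did not overlap: every library with OA was below every library without it. The log2 fold change was -0.49 ± 0.05 (SE, adjusted p = 1.4e-08). Gp93, its partner among the major ER chaperones, ranged from 455 to 484 CPM without OA (median 468) and from 340 to 365 CPM with OA (median 353), again without overlap. Its log2 fold change was -0.41 ± 0.04 (SE, adjusted p = 3.0e-09).

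Xbp1 ranged from 613 to 680 CPM without OA (median 630) and from 451 to 482 CPM with OA (median 469). It did not overlap between the groups either, and its log2 fold change was -0.44 ± 0.04 (SE, adjusted p = 8.8e-10). The change of crc was smaller. Its libraries spread from 605 to 678 CPM without OA (median 639) and from 545 to 615 CPM with OA (median 563), so that the ranges overlapped, with a log2 fold change of -0.17 ± 0.04 (SE, adjusted p = 0.0090).

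Values of the other members did not pass the test over all genes by edgeR. PEK had a log2 fold change of -0.11 (adjusted p = 0.14), Ero1L of -0.17 (adjusted p = 0.097), Pdi of -0.07 (adjusted p = 0.37) and Atf6 of 0.07 (adjusted p = 0.54). Ero1L passed when replicate 6 without OA was left out, at -0.22 (adjusted p = 0.047). The calls of this comparison depended on the unit. On log2(FPKM + 1) with limma, 0 of the 8 genes passed, beside 61 of all 7546 genes, and the log2 fold changes were smaller, at -0.27 for Hsc70-3, -0.16 for Xbp1, -0.10 for Gp93 and -0.02 for crc. Replicate 1 without OA had low FPKM values for its counts, with a median log2 offset of -1.12 over 5700 genes, as had the 2 libraries left out (-1.48 and -1.33). The other 33 libraries lay between -0.21 and 0.33. Settings chosen after seeing the data centred the libraries on their median. With all libraries, Hsc70-3 alone then passed, at -0.42 (limma adjusted p = 0.0038), with Xbp1 at -0.31 (0.088), Gp93 at -0.25 (0.15) and crc at -0.16 (0.071). Without that replicate the same 4 genes passed, Hsc70-3 at -0.47 (adjusted p = 5.9e-04). The shares of all genes passing with centred libraries are not given here, so these counts have no background to be read against.

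The comparison was repeated in a separate set of libraries, the vehicle groups with DMSO. Hsc70-3, Xbp1 and Gp93 were again lower with OA, 3 of 8 genes called beside 6.45% of 7522 genes in either direction and 3.47% lower. Hsc70-3 was 993 and 1003 CPM without OA and 801 and 802 CPM with OA, a log2 fold change of -0.32 ± 0.07 (SE, adjusted p = 0.0043). Xbp1 was 593 and 594 CPM without OA and 470 and 501 CPM with OA, a log2 fold change of -0.29 ± 0.07 (SE, adjusted p = 0.0086). Gp93 was 442 and 476 CPM without OA and 361 and 370 CPM with OA, a log2 fold change of -0.33 ± 0.07 (SE, adjusted p = 0.0017). None of these groups overlapped, with 2 libraries used in each. Nor did those of crc and Ero1L, which were not called (edgeR adjusted p = 0.29 and 0.20). A lack of overlap thus does not set the 3 called genes apart here, and its share over all genes was not counted.

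Each of these calls was lost when certain libraries were left out. Hsc70-3 lost its call without replicate 2 of the vehicle with OA (adjusted p = 0.058) and Gp93 without replicate 3 of the vehicle without OA (adjusted p = 0.057). Xbp1 lost it without replicate 2 or 3 of the vehicle without OA (adjusted p = 0.068 and 0.059) or without replicate 1 of the vehicle with OA (adjusted p = 0.14). On FPKM values the calls of all 3 were lost, and with centred libraries that of Xbp1. The 2 libraries that the authors left out lay on the same sides: Hsc70-3 was 924 CPM without OA and 732 CPM with OA, Xbp1 650 and 503 CPM, and Gp93 447 and 354 CPM. With both restored, the same count of 3 genes passed.

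DMSO itself changed none of the 8 genes past the threshold. Between vehicle and no vehicle, 1 gene of 7546 (0.0133%) was called without OA and 0 (0%) with OA by edgeR, beside 479 and 391 genes at an unadjusted p under 0.05, of which 0 were among the 8 genes in both comparisons. DESeq2 called 0 genes in both. The OA effect with DMSO minus that without was 0.17 on the log2 scale for Hsc70-3 (95% interval -0.04 to 0.39), 0.15 for Xbp1 (-0.02 to 0.33) and 0.08 for Gp93 (-0.09 to 0.25). No gene was called for this difference (0 of 7546, 0%) by edgeR or by DESeq2, beside 290 at an unadjusted p under 0.05.

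**Figure D1:**
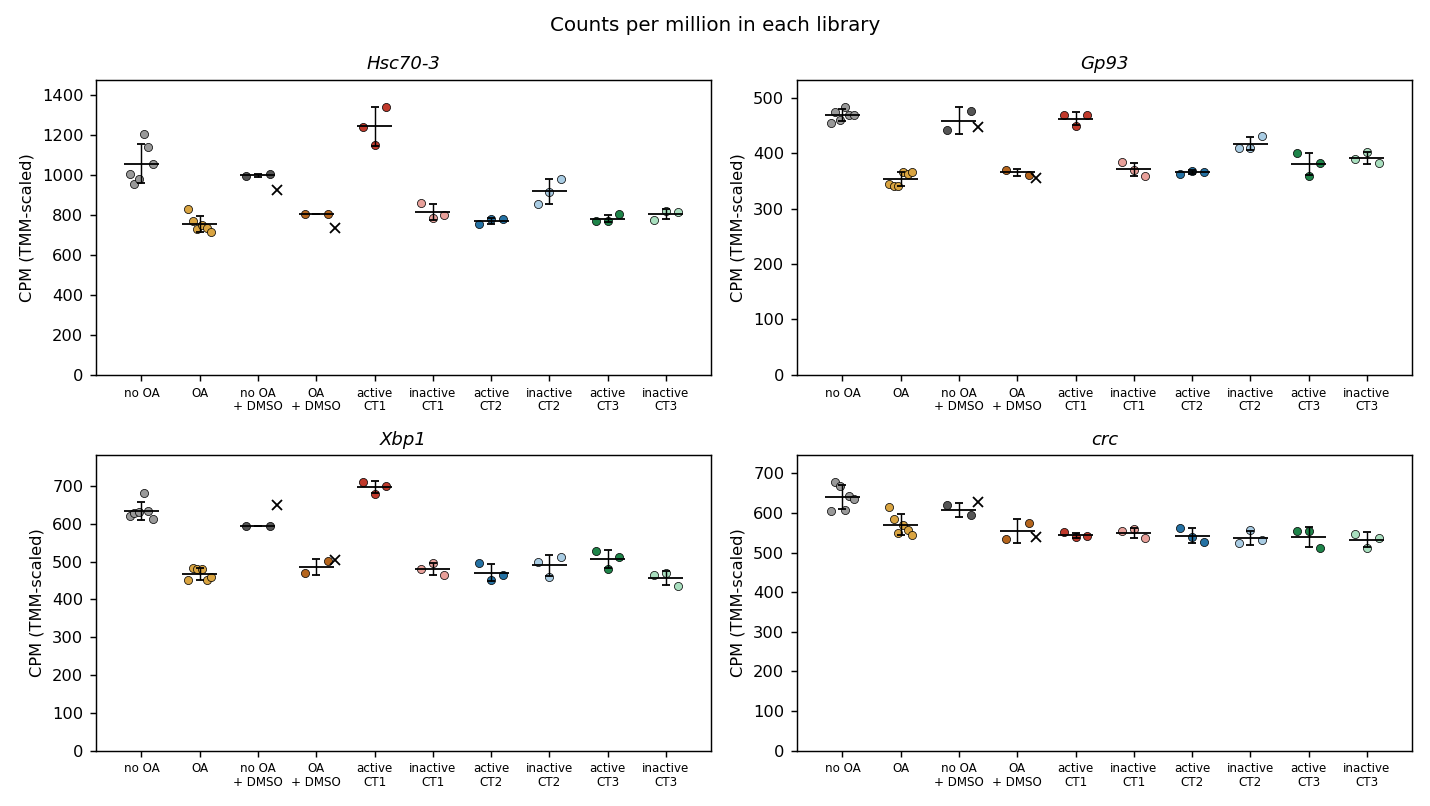
Level of Hsc70-3, Gp93, Xbp1 and crc in each library, as TMM-scaled CPM on linear axes from 0. Each point is a library, horizontal lines are group means with the SD as error bars, and crosses are the 2 libraries left out. The 3 active CT1 libraries of Hsc70-3 (1146 to 1340 CPM) sit above all 8 used libraries with OA and no compound (713 to 827 CPM).

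The next question was how the derivatives acted on top of OA. Active CT1 raised Hsc70-3, Xbp1 and Gp93, which OA had lowered in both sets, and no other compound gave a call against the vehicle with OA. The fourth gene that OA lowered without DMSO, crc, was at a log2 fold change of -0.03 with active CT1 (adjusted p = 0.84 by edgeR). For active CT1 this was 3 of 8 genes, beside 12.1% of 7522 genes called in either direction and 7.48% higher. Against inactive CT1, a comparison that uses the same active libraries but not the vehicle, the same 3 genes were higher, beside 12.7% of genes in either direction and 8.42% higher. The median log2 fold change against inactive CT1 was 0.13 over the 8 genes and -0.01 over all genes.

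Hsc70-3 was 1236, 1146 and 1340 CPM with active CT1 and 859, 783 and 798 CPM with inactive CT1. The libraries did not overlap, and the log2 fold change was 0.60 ± 0.06 (SE, 95% interval 0.48 to 0.73, adjusted p = 1.7e-10), or 1.52-fold. Against the vehicle with OA it was 0.63 ± 0.07 (SE, adjusted p = 1.7e-09).

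Xbp1 was 710, 680 and 701 CPM with active CT1 and 479, 496 and 464 CPM with inactive CT1. These did not overlap either, and the log2 fold change was 0.54 ± 0.06 (SE, 95% interval 0.42 to 0.66, adjusted p = 1.8e-09), or 1.45-fold. Compared with the vehicle and OA it was 0.52 ± 0.07 (SE, adjusted p = 7.9e-08).

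Gp93 was 469, 449 and 469 CPM with active CT1 and 384, 369 and 359 CPM with inactive CT1. The log2 fold change was 0.32 ± 0.06 (SE, 95% interval 0.20 to 0.43, adjusted p = 5.4e-05), or 1.24-fold. Set against that vehicle group it was 0.34 ± 0.06 (SE, adjusted p = 1.1e-04). The calls of Hsc70-3, Xbp1 and Gp93 against inactive CT1 held under all 15 alternatives tried, with log2 fold changes of 0.55 to 0.79, 0.51 to 0.75 and 0.29 to 0.52.

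The remaining members did not pass the test between active and inactive CT1. PEK was 105, 104 and 105 CPM with active CT1 and 92.8, 92.3 and 94.4 CPM with inactive CT1, without overlap, at a log2 fold change of 0.16 ± 0.07 (SE, 95% interval 0.02 to 0.30, edgeR adjusted p = 0.13). Its sister sensor Atf6 had a log2 fold change of -0.13 (95% interval -0.33 to 0.07), crc of -0.02 (-0.13 to 0.09), Pdi of 0.09 (-0.02 to 0.20) and Ero1L of 0.06 (-0.15 to 0.27). For Pdi and crc, a change of over 1.2-fold thus lay outside the interval. Like PEK, Pdi did not overlap, at 1582.1 to 1600.5 CPM with active and 1461.9 to 1536.5 CPM with inactive CT1 (edgeR adjusted p = 0.32).

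Inactive CT1 itself did not move any of the 8 genes past the threshold against the vehicle with OA. No gene was called there at all (0 of 7522, 0%) by edgeR and 1 by DESeq2, beside 364 genes at an unadjusted p under 0.05, and the intervals of Hsc70-3 (-0.11 to 0.16), Xbp1 (-0.15 to 0.12) and Gp93 (-0.11 to 0.15) included 0.

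The rise with active CT1 was also set against the vehicle without OA, a comparison added after values were seen. Hsc70-3 and Xbp1 were above it, with log2 fold changes of 0.31 ± 0.07 (SE, adjusted p = 5.1e-04) and 0.23 ± 0.07 (SE, adjusted p = 0.0089), while Gp93 was at 0.01 (95% interval -0.12 to 0.13). These were 2 of 8 genes, beside 21% of all genes. Xbp1 lost its call there without replicate 2 or 3 of the vehicle without OA (adjusted p = 0.067 and 0.070). In the order of the 10 group means, active CT1 came first for Hsc70-3 and Xbp1, and was followed in both by the cells without OA. The overlap between these groups came from replicate 4 without OA alone, at 1201.9 CPM for Hsc70-3 and 680.2 CPM for Xbp1. The lowest active CT1 libraries were at 1146 and 679.8 CPM.

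Active CT2 did not raise these genes. Against the vehicle with OA, 0 of the 8 genes passed (2.03% of all genes did) and 0 were at an unadjusted p under 0.05. Hsc70-3 was 752, 778 and 777 CPM with active CT2, at a log2 fold change of -0.05 (95% interval -0.18 to 0.09), Xbp1 at -0.03 (-0.17 to 0.10) and Gp93 at 0.02 (-0.11 to 0.15).

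Between the CT2 derivatives, Hsc70-3 was lower with the active compound, as 1 of 8 genes called beside 2.49% of all genes. Its level was 855, 913 and 980 CPM with inactive CT2, above all active CT2 libraries, and the log2 fold change was -0.25 ± 0.06 (SE, 95% interval -0.38 to -0.13, adjusted p = 0.014). This call was lost without replicate 1 of active CT2 (adjusted p = 0.071), without replicate 3 of inactive CT2 (adjusted p = 0.14) and in a fit of the 2 groups alone (adjusted p = 0.13). Gp93 was 363, 368 and 367 CPM with active CT2 and 410, 410 and 431 CPM with inactive CT2, also without overlap, at a log2 fold change of -0.19 ± 0.06 (SE, adjusted p = 0.066). It passed without replicate 2 of inactive CT2 (adjusted p = 0.046) and with DESeq2 (adjusted p = 0.020). Both genes were at higher values with inactive CT2 than in the vehicle with OA, by 0.21 and 0.20 on the log2 scale (adjusted p = 0.17 and 0.15), a comparison in which 0 of 8 members and 0.877% of all genes passed by edgeR, beside 3 members and 793 genes at an unadjusted p under 0.05. DESeq2 called 0 members and 43 genes there.

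CT3 gave no call among the 8 genes. Active CT3 was not separated from the vehicle with OA (0 of 8 genes beside 4.87% of all genes) or from inactive CT3 (0 of 8 beside 3.68%), and inactive CT3 was not separated from the vehicle (0 of 8 beside 0.0133%). DESeq2 called 0 members in each of these, and 2, 1 and 0 members were at an unadjusted p under 0.05. Hsc70-3 was 769, 770 and 804 CPM with active and 774, 820 and 816 CPM with inactive CT3, an overlap with a log2 fold change of -0.04 (95% interval -0.16 to 0.08). Xbp1 was 529, 480 and 512 CPM with active and 463, 470 and 437 CPM with inactive CT3. These values did not overlap, but the log2 fold change of 0.15 ± 0.06 (SE, 95% interval 0.03 to 0.27) had an adjusted p of 0.22 by edgeR. Gp93 was at -0.04 (95% interval -0.16 to 0.08).

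**Figure D2:**
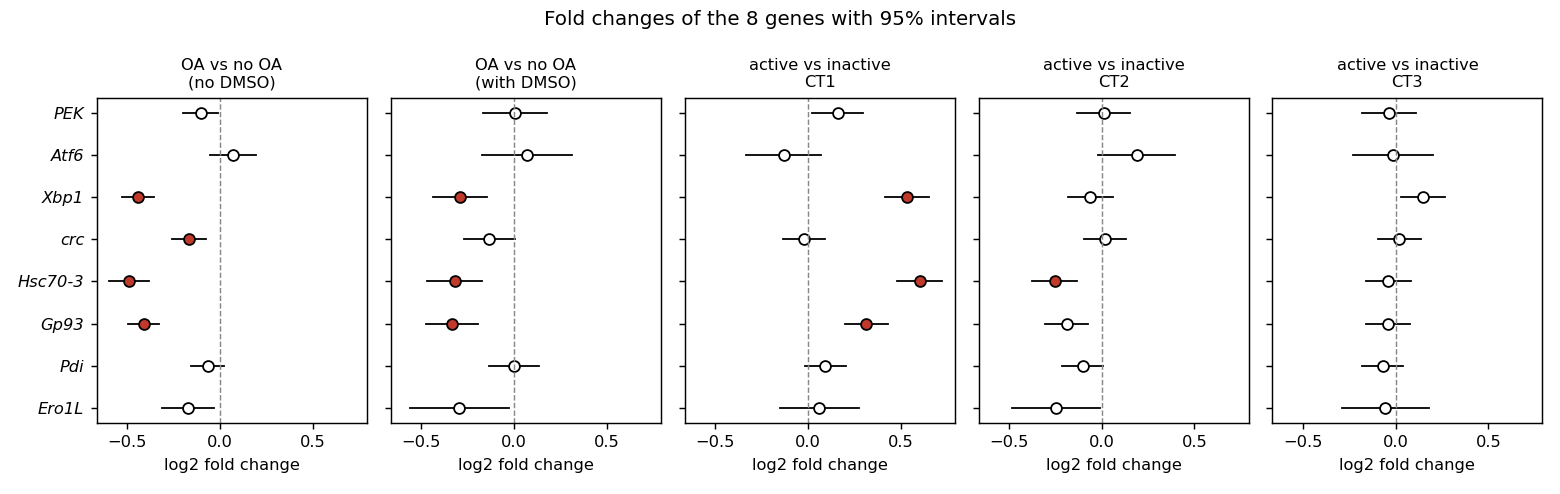
Log2 fold changes of the 8 genes in 5 comparisons (x axis) with 95% intervals as lines. Filled points passed an adjusted p of 0.05 in edgeR, and open points did not. Hsc70-3, Gp93 and Xbp1 lie left of 0 in both OA panels (-0.49 to -0.29) and right of 0 for active against inactive CT1 (0.32 to 0.60).

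Whether the chemotypes differed was tested directly, as the difference of the active minus inactive effects, over the 3 pairs of chemotypes. The CT1 effect exceeded that of CT2 by 0.86 ± 0.09 on the log2 scale for Hsc70-3 (SE, adjusted p = 1.0e-09), by 0.60 ± 0.08 for Xbp1 (SE, adjusted p = 1.6e-06) and by 0.50 ± 0.08 for Gp93 (SE, adjusted p = 2.0e-05), 3 of 8 genes beside 7.68% of all genes. The same genes were called between CT1 and CT3, beside 1.56% of all genes, with differences of 0.64 ± 0.09 for Hsc70-3 (SE, adjusted p = 3.5e-06), 0.39 ± 0.08 for Xbp1 (SE, adjusted p = 0.0059) and 0.36 ± 0.08 for Gp93 (SE, adjusted p = 0.011). Gp93 lost this last call without replicate 3 of inactive CT1 (adjusted p = 0.0522) or replicate 2 of active CT3 (adjusted p = 0.0523). These p-values are adjusted over genes within each pair of chemotypes. The difference from CT2 includes the level of inactive CT2. Against the vehicle with OA, that derivative was at 0.21 for Hsc70-3 and 0.20 for Gp93, neither called.

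No member was called between CT2 and CT3 (0 of 8, beside 0.838% of all genes) by edgeR or DESeq2, and 2 were at an unadjusted p under 0.05. The difference was -0.21 for Hsc70-3 (95% interval -0.39 to -0.04, adjusted p = 0.32) and -0.21 for Xbp1 (95% interval -0.38 to -0.04, adjusted p = 0.33).

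Under active CT2 and active CT3 the chaperone genes stayed below the vehicle without OA. In this comparison, also added after values were seen, Hsc70-3, Xbp1, Gp93 and Ero1L were lower with each compound, 4 of 8 genes beside 14.4% of all genes for CT2 and 12.5% for CT3. The log2 fold changes for CT2 and CT3 were -0.37 and -0.35 for Hsc70-3, -0.33 and -0.23 for Xbp1, -0.32 and -0.27 for Gp93, and -0.53 and -0.36 for Ero1L, with adjusted p from 7.7e-05 to 0.036 by edgeR. These comparisons share the vehicle libraries. Ero1L lost its CT2 call without replicate 2 of the vehicle without OA (adjusted p = 0.077), and its CT3 call without that replicate (adjusted p = 0.39) or without replicate 3 of active CT3 (adjusted p = 0.32). The CT3 call of Ero1L was also lost with DESeq2 (adjusted p = 0.16), with all mapped libraries (0.076) and on centred FPKM values (0.27). For CT3, Xbp1 lost its call without replicate 2 or 3 of that vehicle (adjusted p = 0.10 and 0.094) or replicate 2 of active CT3 (adjusted p = 0.091), and Gp93 without replicate 3 of that vehicle (adjusted p = 0.090).

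PEK, Atf6 and Pdi were never called in any of these 20 comparisons with the main test. Atf6 had group means between 43.3 and 53.5 CPM, and its libraries overlapped between every pair of neighbours in the order of the 10 groups. Pdi had group means between 1389 and 1594 CPM, with the same overlap between all neighbours. PEK was 77.6 to 96.2 CPM with active CT3, the lowest group mean, and its group means spanned 86.8 to 104 CPM. It passed in a single setting, active CT3 against the vehicle without OA when replicate 3 of active CT3 was left out (adjusted p = 0.032).

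**Figure D3:**
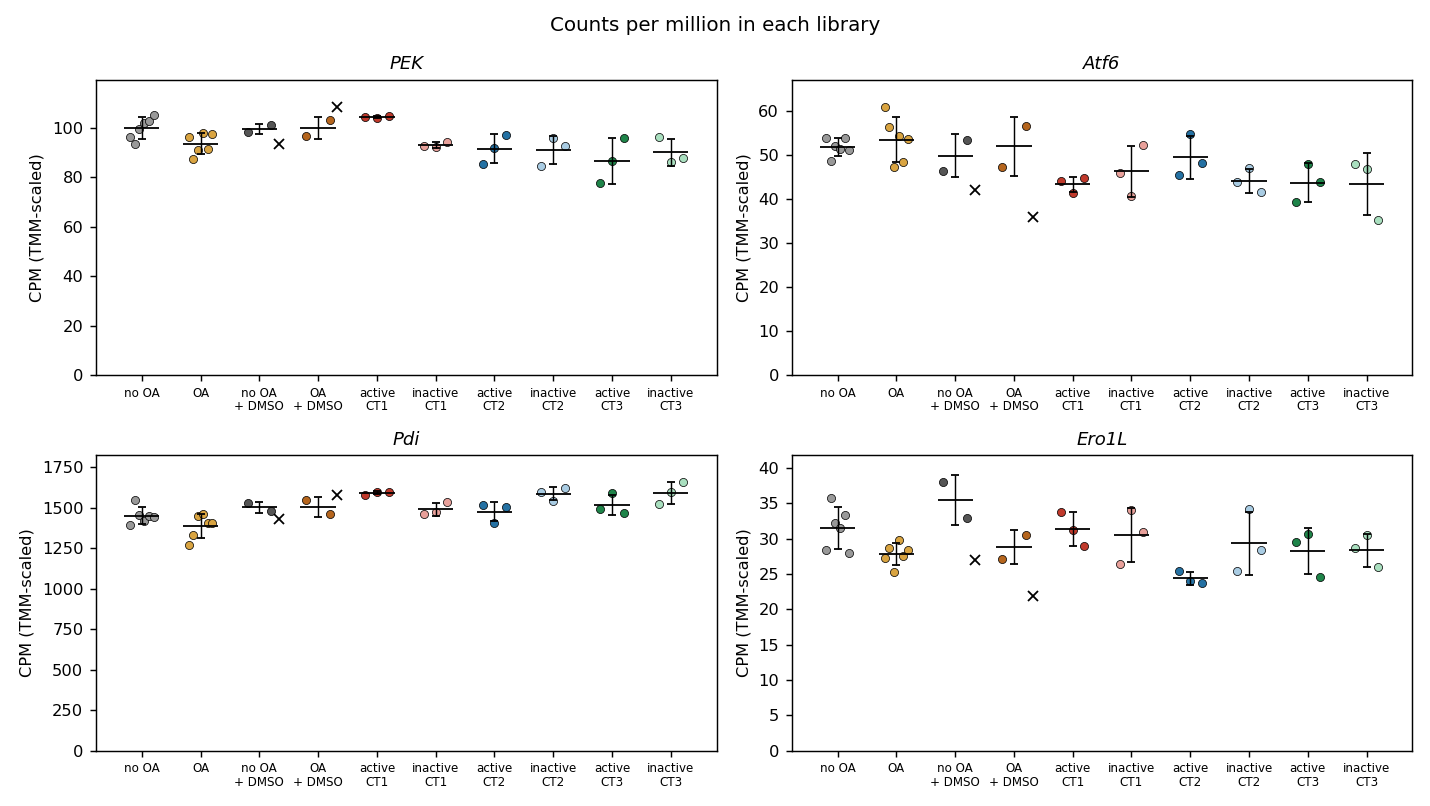
Level of PEK, Atf6, Pdi and Ero1L in each library, as TMM-scaled CPM on linear axes from 0, drawn as for Hsc70-3. Points are libraries, lines are means, bars are the SD and crosses are the 2 libraries left out. The group means span 86.8 to 104 CPM for PEK, 43.3 to 53.5 for Atf6, 1389 to 1594 for Pdi and 24.4 to 35.5 for Ero1L.

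The 8 genes did not move as a block. Over the 10 group means in log2 CPM, Pearson's r with Hsc70-3 was 0.95 for Xbp1 and 0.93 for Gp93, 0.74 for PEK and 0.68 for Ero1L, but 0.39 for crc, 0.38 for Pdi and -0.18 for Atf6. Among 4708 genes of at least 4 in average log2 CPM, the 5 most like Hsc70-3 outside the 8 were Act42A (r = 0.96), Sec22 (0.96), Herp (0.96), CG10962 (0.94) and Act5C (0.94). Act42A and Act5C encode cytoplasmic actins, Sec22 is a SNARE of transport between the ER and the Golgi, and Herp is an ER membrane protein of the degradation machinery. The 5 most like Xbp1 were Diap1 (r = 0.96), an inhibitor of apoptosis, Sec22 (0.96), CG4825 (0.96), Pcyt1 (0.96), the rate-limiting enzyme of phosphatidylcholine synthesis, and Inos (0.96), which makes inositol phosphate. Active CT1 was the highest group for 4 of the 5 genes in the second set and for all 5 in the first. The 10 means share libraries and scaling, and the values are descriptive.

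Other genes of the response were taken from 5 lists of 64 names, of which 60 matched a gene row. Among the ER chaperones and folding enzymes, 15 of 17 matched genes were tested. OA without DMSO lowered 10 of them and raised none, beside 6.93% of all genes lower, with all 15 log2 fold changes below 0 and a median of -0.21 (-0.01 over all genes). With the members left out, 8 of 11 were lower. The largest falls outside the members were those of the J-domain proteins shv (log2 fold change -0.57 ± 0.06, SE, edgeR adjusted p = 2.2e-08) and P58IPK (-0.50 ± 0.05, SE, adjusted p = 8.8e-10), which are co-chaperones of BiP. The vehicle groups gave 7 lower and none higher of the 15, beside 3.47% of all genes lower, with shv at -0.68, the secreted protein Manf at -0.46 and P58IPK at -0.37. Outside the members this was 5 of 11 genes. The count of 7 was 3 to 7 over 10 alternatives on counts, and Calr and CaBP1 lost their calls when any 1 of the 4 libraries was left out. On log2(FPKM + 1) with limma the counts were 0 without DMSO and 1 with DMSO. With centred libraries and without replicate 1 without OA, 8 of the 15 were lower without DMSO, a count given without its share over all genes.

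Active CT1 raised 4 of these 15 genes against inactive CT1 and lowered none, beside 8.42% of all genes higher and a median of 0.09 over the list. Outside the members, 2 of 11 were higher. The 4 were Hsc70-3, Gp93, Sil1, the nucleotide exchange factor of BiP (log2 fold change 0.37 ± 0.11, SE, adjusted p = 0.016), and P58IPK (0.26 ± 0.06, SE, adjusted p = 0.0023). The call of Sil1 was lost in 5 of 15 alternatives, with DESeq2, in 1 fit on FPKM and in 3 fits without a single library (replicate 1 of active CT1, replicates 1 and 2 of inactive CT1), and that of P58IPK in 0. In the comparison with the vehicle and OA, 5 were higher, beside 7.48% of all genes: the same 4 and shv at 0.39 (adjusted p = 0.0063). Members aside, 3 of 11 genes were higher. The count of 5 was 3 to 5 over the alternatives. P58IPK lost its call in 2 fits on FPKM and without either vehicle library. Sil1 lost it without replicate 1 of the vehicle with OA, and shv without replicate 2. P58IPK was 121, 117 and 121 CPM with active CT1 and 92.8, 111 and 97.5 CPM with inactive CT1, and did not overlap. Calr, the lectin chaperone calreticulin, was lower with active than inactive CT2 by edgeR (-0.23, adjusted p = 0.014), as was P58IPK (-0.24, adjusted p = 0.031), but these calls were lost in 7 and 10 of 15 alternatives, of which 3 and 5 left out a single library. Calr was at -0.19 between active and inactive CT3 (edgeR adjusted p = 0.049), a call lost in 9 of 15 alternatives, 5 of them with a single library left out.

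In the list of ER-associated degradation, where misfolded proteins are ubiquitinated and removed, active CT1 raised 2 of 9 genes against inactive CT1, beside 8.42% of all genes. Ubc7, a ubiquitin-conjugating enzyme, was 77.5, 78.7 and 73.0 CPM with active and 49.6, 51.2 and 50.0 CPM with inactive CT1, a log2 fold change of 0.61 ± 0.09 (SE, adjusted p = 6.0e-07). Herp rose by 0.44 ± 0.10 (SE, adjusted p = 0.0015), and both calls held in all 15 alternatives. Against the vehicle with OA the count was 3, beside 7.48% of all genes, with Hrd3, a subunit of the Hrd1 ligase, at 0.26 (adjusted p = 0.032). That count ran from 1 to 4 over 14 alternatives: Ubc7 held in all of them, while Hrd3 was lost in 8 and Herp in 7 (log2 fold change 0.15 to 0.57), both with DESeq2, on FPKM and without replicate 2 of the vehicle with OA or replicate 1 or 2 of active CT1, and Hrd3 also without replicate 1 of that vehicle. Ubc7 was the list gene that also rose with active against inactive CT3, with 61.5, 69.6 and 75.1 CPM against 49.0, 46.9 and 54.8 CPM (log2 fold change 0.49 ± 0.09, SE, adjusted p = 2.1e-04). OA without DMSO lowered 2 of the 9 genes, beside 6.93% of all genes. These were Herp (-0.39, adjusted p = 1.1e-04) and Npl4 (-0.18, adjusted p = 0.011), which extracts substrates from the membrane. Their calls were lost in 3 and 4 fits on FPKM, and neither passed in the vehicle groups.

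In the list of 10 sensors and regulators, Xbp1 alone was called between active and inactive CT1, beside 12.7% of all genes, and between the vehicle groups, beside 6.45%. OA without DMSO gave 3 calls, beside 13.6%, with Xbp1 and crc lower and Ire1 at 0.14 ± 0.05 (SE, adjusted p = 0.033), a small change with overlapping libraries. The call of Ire1 was lost in 12 of 22 alternatives, among them the replicate block and 6 fits without a single library. Among 16 genes of the translocon, signal peptidase and oligosaccharyl transferase, active against inactive CT1 gave 3 calls, beside 12.7% of all genes, with 1 higher gene, Sec61gamma of the translocation channel (0.25, adjusted p = 0.029), and 2 lower, TRAM (-0.25, adjusted p = 0.0079) and SsRbeta (-0.19, adjusted p = 0.049), both of which accompany the channel. SsRbeta held in 1 of 15 alternatives (log2 fold change -0.21 to -0.05). Sec61gamma was lost in 9 of the 15, with DESeq2, on FPKM and in 5 fits without a single library, and TRAM in 3, all on FPKM (-0.08 at the smallest). OA without DMSO lowered Ostgamma (-0.16, adjusted p = 0.023) and raised TRAM (0.16, adjusted p = 0.024). In the vehicle groups Ostgamma (-0.27, adjusted p = 0.042) and the signal peptidase subunit Spase18-21 (-0.41, adjusted p = 0.025) were lower. Without DMSO these calls were lost in 5 of 22 alternatives for Ostgamma and in 8 for TRAM, of which 2 and 4 left out a single library. In the vehicle groups they were lost in 9 and 6 of 13, Ostgamma without any 1 of the 4 libraries and Spase18-21 without any but replicate 2 of the vehicle with OA.

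The list of ATF4 targets held the largest changes with active CT1. Of 8 genes, 4 were higher against inactive CT1, beside 8.42% of all genes, and each held in all 15 alternatives. Thor, the translation repressor 4E-BP, was 54.0, 36.6 and 45.1 CPM with active CT1 and 8.02, 8.42 and 8.70 CPM with inactive CT1, a log2 fold change of 2.42 ± 0.16 (SE, adjusted p = 1.4e-15). Ldh, lactate dehydrogenase, was 41.8, 34.6 and 46.1 CPM against 17.2, 10.9 and 12.7 CPM (log2 fold change 1.54 ± 0.14, SE, adjusted p = 8.1e-12).

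The others were Gadd45 (0.52, adjusted p = 0.0021) and scyl (0.44, adjusted p = 1.9e-06), an inhibitor of TORC1 signalling. These genes also answer to factors other than ATF4, and which factor raised them was not tested. The mRNA of crc itself was at -0.02 in the same comparison, and the counts do not show its translation. Against the vehicle with OA, 3 were higher (Thor, Ldh and scyl) and chrb, the paralogue of scyl, was lower (-0.44, adjusted p = 0.019). Of all genes, 12.1% were called there in either direction and 7.48% higher. The call of chrb was lost in 7 of 14 alternatives, with DESeq2, on FPKM and without either vehicle library or replicate 2 of active CT1, and the other 3 held. Ldh rose with active against inactive CT3 as well, by 0.64 ± 0.17 (SE, adjusted p = 0.018), a call lost on FPKM and without replicate 1 or 2 of active CT3 or replicate 1 of inactive CT3. No gene of the list was called for CT2 by edgeR.

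With OA the direction was mixed in this list. Without DMSO, Thor (-0.58, adjusted p = 4.1e-04), Gadd45 (-0.45, adjusted p = 0.0032) and chrb (-0.29, adjusted p = 0.041) were lower and the stress protein Sesn higher (0.27, adjusted p = 3.0e-05). Over all genes, 13.6% were called in either direction without DMSO and 6.93% lower. In the vehicle groups Thor was lower (-0.79, adjusted p = 0.048) and Sesn higher (0.40, adjusted p = 4.7e-04), beside 6.45% of all genes in either direction and 3.47% lower. The call of chrb was lost in 14 of 22 alternatives, 9 of them with a single library left out, and that of Thor in the vehicle groups in 8 of 13, with DESeq2, on FPKM and without any 1 of the 4 libraries. The other calls without DMSO, of Thor, Gadd45 and Sesn, and that of Sesn in the vehicle groups were lost on FPKM values alone.

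**Figure D4:**
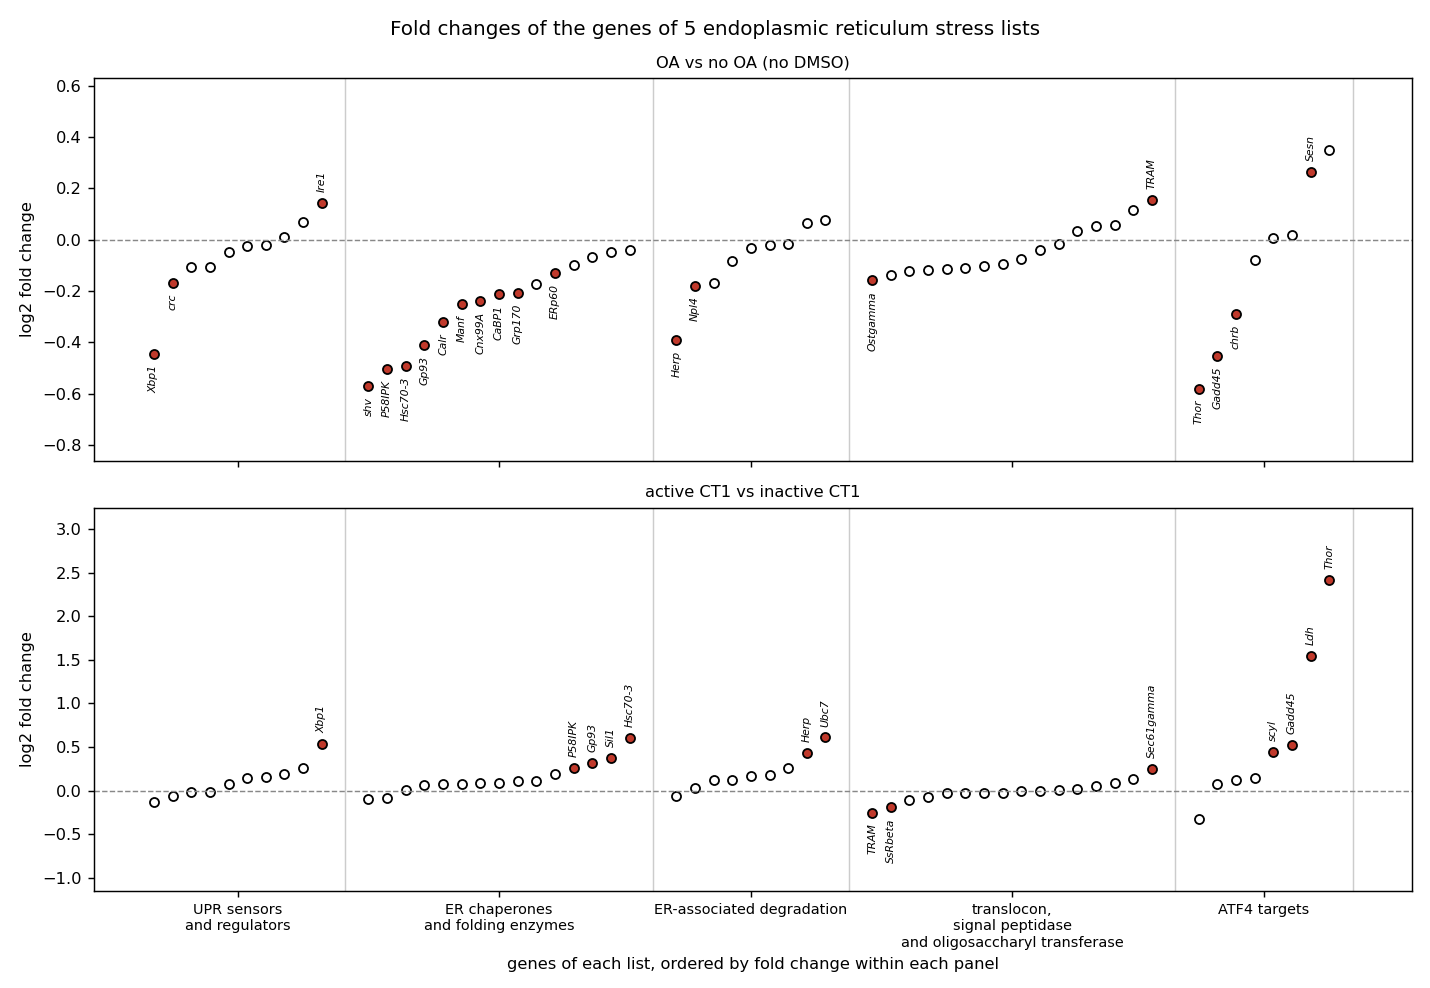
Log2 fold changes (y axis) of the tested genes of the 5 lists, ordered by fold change within each list and panel, for OA against no OA without DMSO (top) and active against inactive CT1 (bottom), which share no library. Filled, named points passed an adjusted p of 0.05 in edgeR. In the chaperone list all 15 points are below 0 in the top panel, and Hsc70-3 (0.60), Sil1 (0.37), Gp93 (0.32) and P58IPK (0.26) are filled above 0 in the bottom panel.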

How the data were processed

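Poly(A) RNA of 36 S3 cell samples was sequenced with a strand-specific protocol. Per the labels and the study's methods, the authors aligned the reads with TopHat2 2.0.10 to BDGP Release 5 with FlyBase gene models, counted reads per gene with HTSeq 0.5.4p1 (deposited raw counts) and computed FPKM values with Cufflinks 2.1.1 (deposited FPKM). Tables of the authors' own comparisons were not used.

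The counts were tested with edgeR 4.0.16 in R 4.3.3 (TMM scaling, filterByExpr by group, quasi-likelihood F test, Benjamini-Hochberg adjustment over all genes tested) in 2 fits: 22 libraries with DMSO, and 16 libraries without a compound. Libraries with DMSO that the authors left out were identified by matching FPKM values with the authors' per-replicate table for 1999 genes (at least 99.9% equal, and at most 0.22% for another library, within 1e-04). That table holds no library without DMSO. Levels in CPM were scaled over all 36 libraries. Intervals are 95% intervals of the fit. No libraries of a group were identical, and the smallest chi-square per gene between 2 of them was 1.51. Both fits were tested on simulated counts. Alternatives used DESeq2 1.42.0, limma 3.58.1 on log2(FPKM + 1) and log2(FPKM + 0.1), no filter, library sizes without the 18S row, all libraries, only the groups compared, the replicate block, and each library left out in turn.

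The 8 genes and the 5 lists were chosen with earlier results of these data known. Values are given for the 8 genes in every comparison, for up to 3 rises and 3 falls per list and comparison described, and for the 5 genes most like Hsc70-3 and Xbp1. P58IPK and scyl with active CT1 fall outside that rule and were named after their values were seen, to complete counts of 5 or fewer. Calr and CaBP1 in the vehicle groups, and ERp60 and Grp170 for OA without DMSO, also fall outside it. They too were named after their values were seen, where calls depended on libraries or units.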

Additional observations from a re-analysis of the deposited data

Results flagged for a closer look

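Xbp1 in cells without OA had a library far from the others: 680 CPM in replicate 4, while the other 5 libraries lay between 613 and 634 CPM. The gap was 0.677 of the group's range. This was 1 of 16 groups of 6 libraries examined (8 genes, with and without OA), and chance flags about 1 in 20 such groups. Without that replicate Xbp1 was still lower with OA.

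The effect of the active over the inactive derivative differed between chemotypes for Hsc70-3, Xbp1 and Gp93, by a test of the difference in edgeR. Between CT1 and CT2 the log2 differences were 0.86 for Hsc70-3, 0.60 for Xbp1 and 0.50 for Gp93. Between CT1 and CT3 they were 0.64 for Hsc70-3, 0.39 for Xbp1 and 0.36 for Gp93. All 3 active CT1 libraries lay above all 3 inactive CT1 libraries for each of these genes. The same was true of PEK and Pdi, which were not called between these groups (edgeR adjusted p = 0.13 and 0.32). How many of all genes separated in this way was not counted, so the lack of overlap is descriptive only.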

How the results depend on the processing

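Over the 20 comparisons, 30 results of single members passed the main test. Their direction held in all 495 fits under alternatives, and 424 of these fits passed; 50 of the losses were on FPKM values and 21 on counts. On log2(FPKM + 1) and on log2(FPKM + 0.1), 0 of the 8 genes passed for OA with DMSO (3 in the main test), OA without DMSO (4), active against inactive CT2 (1) and active CT1, CT2 and CT3 against the vehicle without OA (2, 4 and 4), and 1 gene, Hsc70-3, for the difference of CT1 from CT2 and from CT3 (3 each). With centred libraries, chosen after seeing the data, 1 passed for OA without DMSO, 0 for active against inactive CT2 and 4 for OA without DMSO when replicate 1 without OA was also left out. These counts are given without the shares of all genes. Against the vehicle without OA, crc passed as lower with all mapped libraries for active CT1, CT2 and CT3 (adjusted p = 0.025, 0.036 and 0.028) and with DESeq2 for CT1 and CT3 (0.048 and 0.045), and for CT3 in a fit of those groups alone (0.0095). DESeq2 called 2 genes between the CT2 derivatives and a fit of those groups alone 0. Leaving out single libraries gave 1 to 2 genes for OA with DMSO, 4 to 5 for OA without DMSO, 0 to 2 for active against inactive CT2, 2 to 3 for CT1 against CT3, and 1 to 2, 3 to 4 and 2 to 4 for the active compounds against the vehicle without OA, with no change elsewhere.

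The replicate numbers did not pair the libraries: same-numbered libraries deviated with correlations of -0.139 to 0.100 (70 pairs, 1 above 0.1) with DMSO and -0.117 to 0.0519 (15 pairs) in the controls, and 10 of 22 and 1 of 16 libraries correlated best with their own number. With the replicate block the counts were 3 for OA with DMSO, 4 for OA without DMSO, 3 for active CT1 against inactive CT1 and 1 for CT2, as without it, and 3 in place of 2 for active CT1 against the vehicle without OA. The gene added there was crc, which was lower with active CT1 (-0.17, edgeR adjusted p = 0.039). ERp60, Grp170 and Npl4, lower with OA without DMSO on counts, had log2 fold changes of 0.09, 0.01 and 0.02 on FPKM values. The causes were not tested. The 2 libraries per vehicle group limit what the comparisons with them can show.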
